A study of Homo sapiens with 6 samples.

Results

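The subunits of the mitochondrial respiratory chain are encoded by 2 genomes, and this account follows the RNA of both sets in human embryonic stem cells given an oligo against the LINE1 (L1) transposable element. Members were taken from the count table by symbol: the NDUFA, NDUFB, NDUFC, NDUFS and NDUFV genes, SDHA to SDHD of complex II, UQCR genes and CYC1 of complex III, COX4 to COX8 genes of complex IV, ATP5 genes of complex V, and the mitochondrial MT-ND, MT-CO, MT-CYB and MT-ATP genes. Pseudogenes, antisense entries and read-through entries were dropped, which left 99 of 53715 genes, 86 nuclear and 13 mitochondrial. NDUFA4 and its isoform NDUFA4L2 were placed in complex IV, where the NDUFA4 protein is now known to sit, and the other NDUF genes in complex I. Complex I had 43 members, complex II had 4, complex III had 10, complex IV had 21 and complex V had 18. A further 3 genes matched by name but are not chain subunits: COX7A2L, a supercomplex assembly factor, and ATP5S and ATP5SL, which carry older ATP synthase names. Symbols are those of the deposited table, in which ATP5B, for example, is the gene now called ATP5F1B.

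The cells were H9, an established line of human embryonic stem cells kept in a primed state. They were transfected with 25 nM of a fluorescein-tagged oligo, and tagged cells were sorted 48 hours later for RNA. The 3 groups were ASO-Ctr, an antisense oligo without a specific target, sO-L1, a sense L1 oligo, and ASO-L1, an antisense oligo directed at L1, with 2 libraries each. Per the labels' protocols every group also received 0.7 uM ISRIB, which blocks the integrated stress response, 5 uM of the caspase inhibitor emricasan and 10 uM of a ROCK inhibitor, and these agents were taken off at 24 hours. For the time after transfection the labels name 2 media, mTeSR and RSeT. The study's stated question is the part of L1 in the control of early embryonic genes, not respiration. L1 itself is not a gene of the count table, so the knockdown was not checked here. The labels do not say that replicates were separate cultures. P-values thus measure only the spread between these libraries, which may be technical and which the fit largely pooled over genes.

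The chain passes electrons from NADH (complex I) or succinate (complex II) through ubiquinone, complex III and cytochrome c to oxygen at complex IV, and complexes I, III and IV pump protons that drive the ATP synthase, complex V. Complex II is made by nuclear genes alone, while the other complexes combine nuclear subunits with a few core subunits of the mitochondrial genome. Mitochondrial genes are transcribed as long polycistronic RNAs, which are cut at tRNAs into messages, so their levels depend on processing and stability as well as on transcription. Primed stem cells are known for a strongly glycolytic metabolism, with respiration present but less used.

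Library totals ranged from 18897936 counts (ASO-Ctr replicate 1) to 67192937 counts (ASO-Ctr replicate 2), and 93 members, 80 nuclear and all 13 mitochondrial, passed the filter on low counts. Summed primed pluripotency markers (9 of 9 tested) stood at 7752 to 8355 CPM (a gene's counts scaled to a common library size). Of these, 3 were higher and 3 lower in ASO-L1 against sO-L1 (66.7%, where 23.0% of all genes were called). Against ASO-Ctr 2 were higher and 2 lower (44.4%, where 21.5% of all genes were called). The sum does not show these calls, and none of them held without the replicate block described below. Summed fibroblast markers (4 of 7 tested) were at 168 and 176 CPM in ASO-L1 and at 139 to 163 CPM elsewhere, with COL1A1 called higher in both ASO-L1 comparisons. Summed neural (5 of 7), amnion or trophoblast (2 of 7, with HAND1 at 0 counts) and mesendoderm (4 of 7) markers were at 16.6 CPM or less in every library. In each ASO-L1 comparison EOMES was called higher and FOXA2 lower among the mesendoderm markers, whose sum was 3.5 and 4.0 CPM in ASO-L1 and 4.5 to 5.2 CPM elsewhere. STMN2 of the neural list was higher in both, and DCX lower against ASO-Ctr. The part of these lists in the results was not tested. In such bulk libraries fewer cells of a kind and less RNA per cell cannot be told apart.

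The mitochondrial genes far outweighed the nuclear ones. The 13 mitochondrial members held 2.80% of all counts in ASO-Ctr replicate 1 and 3.23% in replicate 2, with 2.96% and 3.18% for sO-L1 and 2.95% and 3.21% for ASO-L1. The 86 nuclear members held 0.836% and 0.772% in the replicates of ASO-Ctr, 0.892% and 0.777% in those of sO-L1, and 0.878% and 0.790% in those of ASO-L1. The nuclear set was thus higher, and the mitochondrial set lower, in replicate 1 than in replicate 2 of each group, and the groups overlapped on both measures. Nuclear counts per mitochondrial count were 0.299, 0.302 and 0.298 in the replicate 1 libraries of ASO-Ctr, sO-L1 and ASO-L1, and 0.239, 0.244 and 0.246 in the replicate 2 libraries. This ratio differed more between replicate numbers than between oligo groups, and neither difference was tested.

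**Figure D1:**
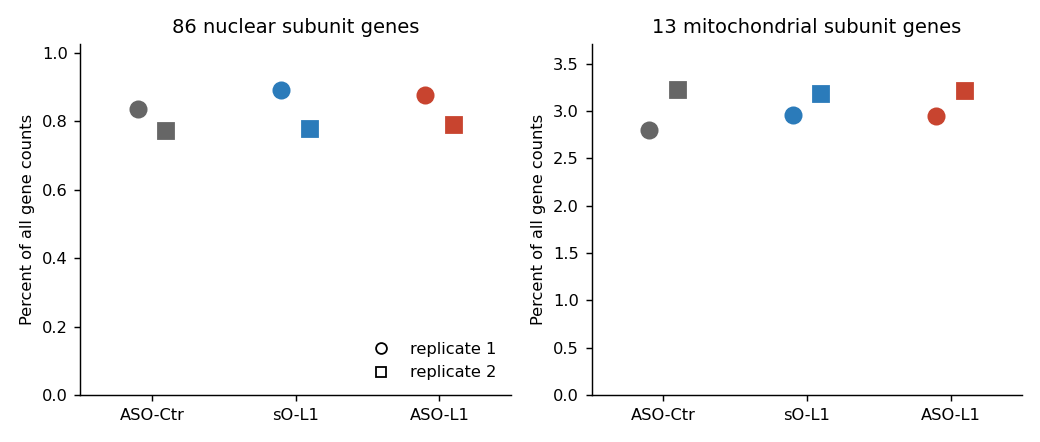
Percent of all gene counts (y axes, from 0) held by the 86 nuclear and the 13 mitochondrial members in each library, by oligo group; circles are replicate 1 and squares replicate 2. In each group the nuclear share is lower in replicate 2 (0.772% to 0.790%) than in replicate 1 (0.836% to 0.892%), and the mitochondrial share is higher.

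Compared per kilobase of transcript, the scale on which genes can be set side by side, the median level was 74.2 CPM per kb over the nuclear members tested and 1895 CPM per kb over the mitochondrial members, as means of all libraries. Among mitochondrial genes the highest was MT-CO3 at 5759 CPM per kb, a core subunit of complex IV, and the lowest MT-ATP8 at 517.5 CPM per kb, a small membrane subunit of complex V. The highest nuclear member was ATP5B, the catalytic beta subunit of ATP synthase, at 486.6 CPM per kb. Nuclear medians were 54.7 CPM per kb in complex I, 37.4 in complex II, 89.7 in complex III, 148.8 in complex IV and 145.3 in complex V. Lengths are of annotated principal transcripts, some of which are far longer than the usual message, so low values per kb of single nuclear genes are uncertain.

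Isoforms of other tissues were at or near 0. COX7B2, a testis isoform, had 0 counts in all 6 libraries, and a count of 0 allows up to 3 counts, or 0.159 CPM in the shallowest library (counting error only). COX4I2 had 1 count in all, COX6A2 had 3, all in ASO-L1 replicate 1, and COX8C, ATP5L2 and NDUFA4L2 had at most 11 counts in any library. These 6 were not tested. COX7A1, the heart and muscle isoform of COX7A, passed the filter with 4 to 15 counts per library, and COX6B2, a testis isoform, with 22 to 86. Nearly all nuclear complex IV RNA in these cells was thus of the ubiquitous isoforms.

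Sequences of some members are given first, as a description. MT-ATP8 is shown because its reading frame runs into that of MT-ATP6 on a shared message (chrM:8366-8572, + strand, GRCh38, GENCODE v29 transcript). The capitals mark the 46 bases, 22.2% of its 207, that are also the start of MT-ATP6, where a read cannot be given to 1 gene alone.
MT-ATP8: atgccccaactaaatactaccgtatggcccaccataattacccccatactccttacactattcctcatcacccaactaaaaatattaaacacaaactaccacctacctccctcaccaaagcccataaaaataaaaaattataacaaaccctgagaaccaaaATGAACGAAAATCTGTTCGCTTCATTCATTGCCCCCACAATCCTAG
Promoters are shown for SDHD and UQCR11, nuclear genes that were lower in ASO-L1 in both of its comparisons, and for ATP5G2 and UQCRH, which were higher in at least 1 (250 bases before the RefSeq start, GRCh38.p14). Respiratory genes are textbook targets of the factors NRF1, GABP of the ETS family and YY1. Motifs were searched on both strands: GCGCA and GCGC with any 1 base between them (NRF1), CCGGAAG (ETS) and ATGGCGG (YY1). No motif's letters contain another's, and capitals mark the matches.
SDHD, chr11:112086623-112086872, + strand: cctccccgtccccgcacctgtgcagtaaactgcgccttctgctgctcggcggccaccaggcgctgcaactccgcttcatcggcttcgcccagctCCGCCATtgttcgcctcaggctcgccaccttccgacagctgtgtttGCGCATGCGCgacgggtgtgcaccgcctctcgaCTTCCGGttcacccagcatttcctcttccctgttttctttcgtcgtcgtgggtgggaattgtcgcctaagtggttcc
UQCR11, chr19:1605463-1605712, - strand: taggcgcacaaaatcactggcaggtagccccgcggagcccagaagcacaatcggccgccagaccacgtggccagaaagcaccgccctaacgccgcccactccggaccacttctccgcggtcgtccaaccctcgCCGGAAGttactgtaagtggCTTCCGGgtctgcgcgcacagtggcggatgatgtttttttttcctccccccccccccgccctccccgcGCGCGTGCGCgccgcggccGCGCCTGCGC
ATP5G2, chr12:53676084-53676333, - strand: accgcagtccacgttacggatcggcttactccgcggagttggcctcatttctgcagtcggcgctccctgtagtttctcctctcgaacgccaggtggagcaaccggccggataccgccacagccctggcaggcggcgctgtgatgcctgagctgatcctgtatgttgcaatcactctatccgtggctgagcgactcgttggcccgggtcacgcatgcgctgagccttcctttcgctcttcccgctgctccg
UQCRH, chr1:46303448-46303697, + strand: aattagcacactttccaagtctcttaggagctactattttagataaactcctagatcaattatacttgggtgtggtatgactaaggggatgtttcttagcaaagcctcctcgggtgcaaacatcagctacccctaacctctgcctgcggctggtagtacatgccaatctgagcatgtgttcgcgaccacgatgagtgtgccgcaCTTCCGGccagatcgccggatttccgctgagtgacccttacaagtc
SDHD has 1 match of each motif, UQCR11 has 2 NRF1 and 2 ETS matches, UQCRH has 1 ETS match and ATP5G2 has none in this window. NDUFA8, the other member lower in both comparisons, is not printed and has 0 matches in this window. The genes printed are thus a selection, and no contrast between lower and higher genes can be read from them.

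ASO-L1 against sO-L1, the sense oligo of the same element, gave calls in both directions, at a lower share than among all genes. Of 93 members tested, 6 were higher and 10 were lower in ASO-L1 (edgeR with the replicate number as a block, Benjamini-Hochberg adjusted p under 0.05 over all genes), or 17.2%, where 23.0% of all genes were called. Among all genes 10.4% were higher and 12.7% lower. The members called higher were NDUFV2, MT-ND1, MT-ND2, CYC1, ATP5B and ATP5G2, and those called lower were SDHD, UQCR11, ATP5H, MT-ND6 and 6 nuclear subunits of complex I. The median log2 fold change was -0.03 for the 80 nuclear members, -0.01 for the 13 mitochondrial members and 0.00 for all genes. Above 0 lay 36 of 93 members, 31 of them nuclear, against 49.9% of all genes, and the nuclear median was -0.08 in replicate 1 and 0.02 in replicate 2. None of these calls held without the block (0 of 93, where 1.84% of all genes were called, and 7 at an unadjusted p under 0.05, where 16.5% of all genes were). Fewer members were called when any library of these 2 groups was left out. The share of all genes called in those fits was not counted.

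ASO-L1 against ASO-Ctr, the comparison with an oligo without a specific target, gave mostly calls of higher RNA. Here 14 members were higher and 4 lower, or 19.4%, where 21.5% of all genes were called, 9.88% higher and 11.6% lower. The higher ones were 3 mitochondrial complex I genes, NDUFB2, NDUFB6, UQCRH, CYC1, ATP5B, ATP5G2, ATP5G3 and 4 complex IV genes. MT-ATP8, SDHD, NDUFA8 and UQCR11 were lower. Medians were 0.06 for nuclear and 0.05 for mitochondrial members on the log2 scale, and 69 of 93 members lay above 0, against 49.6% of all genes. No call held without the block (0 of 93, background 1.95%, and 7 at an unadjusted p under 0.05, background 16.7%). Fewer members were called without ASO-Ctr replicate 1, the shallowest library, or without ASO-L1 replicate 1. How many of all genes were called in those fits was not counted.

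The 2 reference oligos themselves differed at few members. In sO-L1 against ASO-Ctr, UQCRH, NDUFB5 and NDUFA12 were higher and MT-ATP8 was lower, 4 of 93 or 4.30%, where 1.74% of all genes were called, 0.673% higher and 1.06% lower. The nuclear median was 0.07 and the mitochondrial 0.04, with 79 of 93 members above 0, against 49.9% of all genes. That lean was in replicate 1, where the median ratio over all members was 0.13, and it was 0.02 in replicate 2. Without the block no gene of the genome was called by edgeR, members included, and 3 members had an unadjusted p under 0.05, background 2.97%. Higher calls were fewer without ASO-Ctr replicate 1 or sO-L1 replicate 1, and more without ASO-Ctr replicate 2 or either ASO-L1 library. The share of all genes was not counted for those fits. The call of MT-ATP8 was lost without ASO-Ctr replicate 1 or sO-L1 replicate 1.

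The 3 comparisons share libraries, so their results are not independent. CPM did not overlap between groups for 14 of 93 members (15.1%) in ASO-L1 against sO-L1, where this was so for 47.1% of all genes. For ASO-L1 against ASO-Ctr it was 19 (20.4%, all genes 48.6%), and for sO-L1 against ASO-Ctr 12 (12.9%, all genes 29.7%). Members were thus separated by oligo in smaller shares than all genes. Most nuclear members were lower in replicate 2 in all groups, as described further on.

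**Figure D2:**
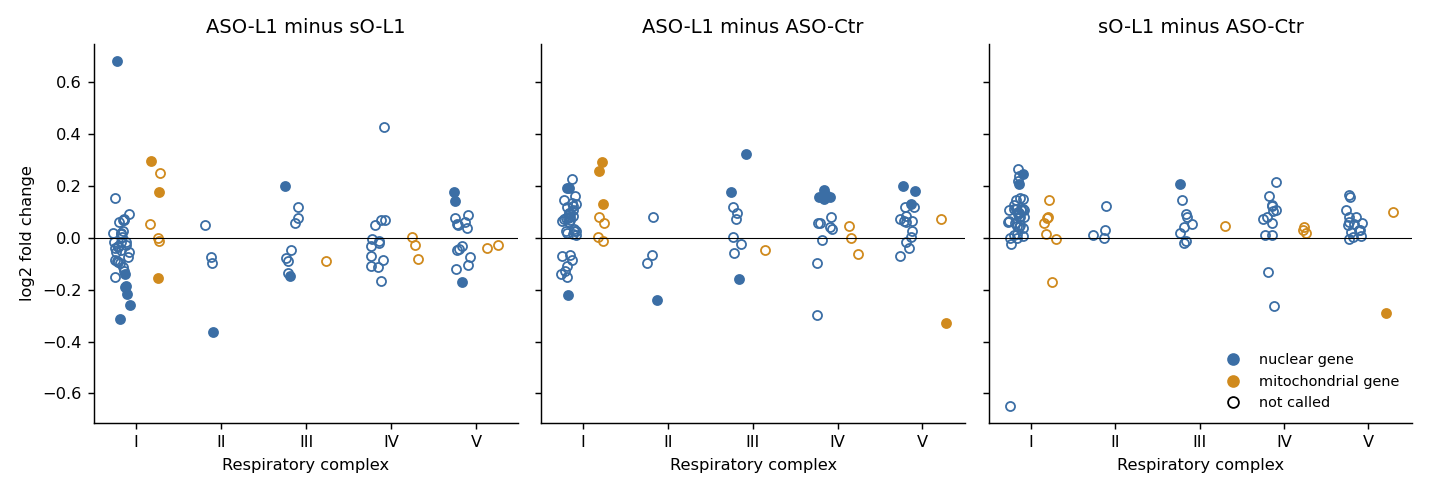
Log2 fold change (y axis) of the 90 tested members that are subunits, by complex, in each comparison; filled points were called by edgeR with the replicate block and open points were not. Most members lie within 0.2 of 0, and the complex II gene at -0.36 in the first panel is SDHD.

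Among the mitochondrial genes, MT-ND1 and MT-ND2, core membrane subunits of complex I, rose in ASO-L1, while no gene of complexes III and IV was called. MT-ND1 stood at 1595 and 1780 CPM in ASO-Ctr, at 1662 and 1701 in sO-L1 and at 2046 and 2084 in ASO-L1. Both ASO-L1 libraries were above all 4 others. The log2 fold change was 0.30 ± 0.05 (SE, n = 2 libraries a group; adjusted p = 2.4e-06, 0.0912 without the block) against sO-L1 and 0.29 ± 0.05 (adjusted p = 3.4e-06, 0.0964 without the block) against ASO-Ctr. This is an increase of 22.8% and 22.5%, and both calls held when any 1 library was left out.

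MT-ND2 stood at 1562 and 1787 CPM in ASO-Ctr, at 1762 and 1778 in sO-L1 and at 1973 and 2032 in ASO-L1. The ASO-L1 libraries were again above the rest. Its log2 fold change was 0.18 ± 0.05 against sO-L1 (adjusted p = 0.0041, 0.314 without the block) and 0.26 ± 0.05 against ASO-Ctr (adjusted p = 3.7e-05, 0.149 without the block). The first call was lost without ASO-L1 replicate 1 or sO-L1 replicate 2, and the second without ASO-Ctr replicate 1.

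MT-ND1 and MT-ND2 are the first 2 messenger genes after the ribosomal RNAs on the heavy-strand transcript. Against ASO-Ctr the lower of the pair, 0.26, was above the highest of the other 10 heavy-strand messages, 0.13 for MT-ND4. Against sO-L1 that did not hold: MT-ND4L, at 0.25 ± 0.14 and not called (adjusted p = 0.315), lay above MT-ND2 at 0.18. MT-ND4L varied widely between replicates, from 188.4 CPM in sO-L1 replicate 1 to 302.9 CPM in ASO-Ctr replicate 2. Leaving out 1 library turned its value against sO-L1 into a call without ASO-L1 replicate 2 (0.46 ± 0.06, adjusted p = 4.6e-11), ASO-Ctr replicate 1 (0.24, 2.5e-05) or ASO-Ctr replicate 2 (0.24, 1.3e-05). Without ASO-L1 replicate 1 it was 0.04 ± 0.06. Calls also arose against ASO-Ctr without ASO-Ctr replicate 2 (0.27) or ASO-L1 replicate 2 (0.29), and in sO-L1 against ASO-Ctr without ASO-Ctr replicate 1 (-0.33) or either ASO-L1 library (-0.16). The ribosomal RNA MT-RNR2, just before MT-ND1, was 0.16 ± 0.05 higher in ASO-L1 than in ASO-Ctr (adjusted p = 0.011, 0.466 without the block), and at 0.04 ± 0.05 against sO-L1 (adjusted p = 0.61). Its call was lost without ASO-Ctr replicate 1 or ASO-L1 replicate 2. Within the mitochondrial messages, MT-ND1 made up 5.41% to 5.68% of counts in the 4 reference libraries and 6.84% and 6.50% in ASO-L1.

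**Figure D3:**
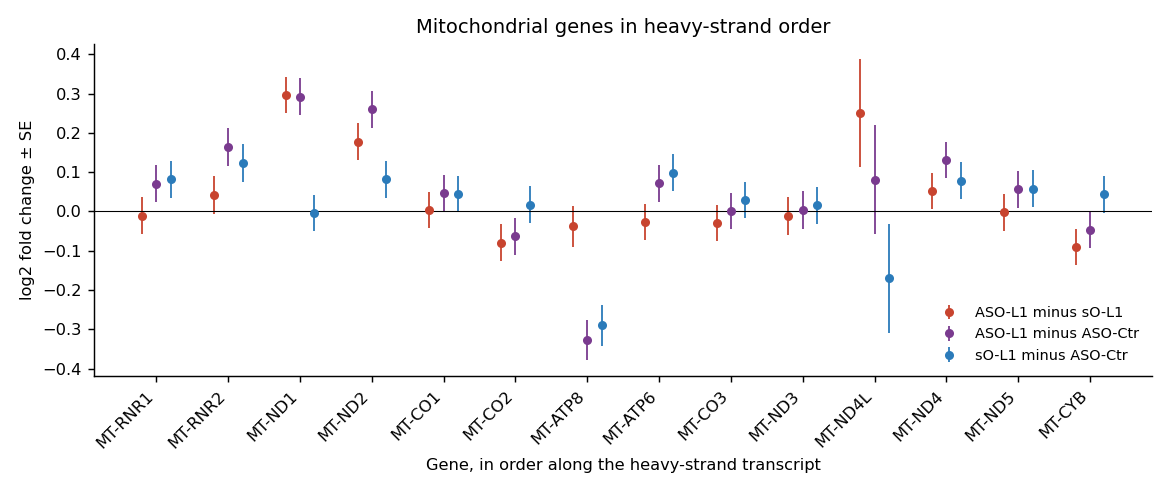
Log2 fold change ± SE (y axis) of the 2 mitochondrial ribosomal RNAs and the 12 messages of the heavy strand, in their order along the transcript (x axis), for the 3 comparisons. MT-ND1 is near 0.30 in both ASO-L1 comparisons, and MT-ATP8 is at -0.33 and -0.29 in the 2 comparisons with ASO-Ctr.

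MT-ATP8 differed between ASO-Ctr and the other 2 oligos. Its level was 132.5 and 114.6 CPM in ASO-Ctr, at 99.2 and 101.1 in sO-L1 and at 97.9 and 97.5 in ASO-L1. The ASO-Ctr libraries were above all 4 others, and those of sO-L1 and ASO-L1 lay close together. It was lower than ASO-Ctr by a log2 fold change of -0.33 ± 0.05 in ASO-L1 (adjusted p = 3.5e-06, 0.0781 without the block) and -0.29 ± 0.05 in sO-L1 (adjusted p = 0.00079, no longer called without the block). ASO-L1 against sO-L1 gave -0.04 ± 0.05 (adjusted p = 0.66). MT-ATP6, the proton channel subunit whose frame begins inside MT-ATP8, stood at 0.07 ± 0.05 in ASO-L1 and 0.10 ± 0.05 in sO-L1 against ASO-Ctr, with neither called. The pair on 1 message thus gave unlike values, with MT-ATP8 the shorter and the less counted of them.

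The other mitochondrial genes moved little. MT-ND6, the complex I subunit encoded on the opposite strand from the others, was at 470.8 and 489.7 CPM in ASO-Ctr, at 524.2 and 538.5 in sO-L1 and at 475.0 and 478.3 in ASO-L1. It was lower in ASO-L1 than in sO-L1 by -0.16 ± 0.05 (adjusted p = 0.0087, 0.283 without the block), a call lost without ASO-L1 replicate 2 or either sO-L1 library, and near 0 against ASO-Ctr (-0.01 ± 0.05). Nuclear copies of MT-ND6 held 13.7% as many counts as the gene. Whether the counting used strand is not given in the sources used here, so MT-ND6 reads cannot be told from reads of the opposite strand. MT-ND4, a proton-pumping subunit, was 0.13 ± 0.05 higher in ASO-L1 than in ASO-Ctr (adjusted p = 0.036, 0.691 without the block), with overlapping groups. That call was lost without ASO-Ctr replicate 1 or ASO-L1 replicate 1. MT-ND3 and MT-ND5 of complex I, MT-CYB of complex III, and MT-CO1, MT-CO2 and MT-CO3 of complex IV were called in no comparison, with log2 fold changes from -0.09 (MT-CYB) to 0.06 (MT-ND5).

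In complex I, 36 nuclear members were tested. Against sO-L1, 1 was higher and 6 were lower in ASO-L1 (19.4%, background 23.0%), and against ASO-Ctr 2 were higher and 1 lower (8.33%, background 21.5%). NDUFA8, an accessory subunit with cysteine pairs of the intermembrane space, was the one lower in both. It stood at 52.7 and 43.5 CPM in ASO-Ctr, at 56.5 and 45.9 in sO-L1 and at 42.3 and 39.6 in ASO-L1. The ASO-L1 libraries were below all others. Its log2 fold change was -0.31 ± 0.06 against sO-L1 (adjusted p = 3.6e-05, 0.23 without the block) and -0.22 ± 0.06 against ASO-Ctr (adjusted p = 0.0043, 0.403 without the block). The first held in each fit that left out 1 library, and the second was lost without ASO-Ctr replicate 1 or ASO-L1 replicate 1.

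The other 5 complex I genes lower than in sO-L1 were accessory subunits, mostly of the membrane arm. NDUFB8 stood at 46.1 and 36.5 CPM in sO-L1 and at 35.8 and 32.5 CPM in ASO-L1, with no overlap and a log2 fold change of -0.26 ± 0.06 (adjusted p = 0.00083, 0.346 without the block). After thinning to the shallowest library it was -0.13 and not called (adjusted p = 0.201). NDUFA11, NDUFB5, NDUFB11 and NDUFS5 had log2 fold changes of -0.22 to -0.14 with overlapping groups, and unblocked adjusted p-values of 0.393 to 0.583. All 5 calls were lost without ASO-L1 replicate 1 or sO-L1 replicate 1, NDUFA11 and NDUFB11 also without ASO-L1 replicate 2, and NDUFA11 also without sO-L1 replicate 2. DESeq2 did not call NDUFA11 (adjusted p = 0.159) or NDUFS5 (0.0973). None of the 5 was called against ASO-Ctr. NDUFB5 was instead 0.21 ± 0.05 higher in sO-L1 than in ASO-Ctr (adjusted p = 0.026), as was NDUFA12, an accessory subunit, at 0.25 ± 0.06 (adjusted p = 0.012). Both of these calls were lost when any library of either group was left out. NDUFB2 and NDUFB6, membrane arm subunits, were 0.19 ± 0.05 and 0.19 ± 0.06 higher in ASO-L1 than in ASO-Ctr (adjusted p = 0.0069 and 0.022, 0.521 and 0.368 without the block). Those were lost without ASO-Ctr replicate 1 or ASO-L1 replicate 1, and NDUFB6 also without ASO-L1 replicate 2. DESeq2 did not call NDUFB6 (adjusted p = 0.097).

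NDUFV2, a core iron-sulfur subunit of the NADH-binding module, was listed at 1.59 and 2.23 CPM in ASO-Ctr, at 1.12 and 1.36 in sO-L1 and at 1.64 and 2.30 in ASO-L1, the lowest level in the complex. Both ASO-L1 libraries were above both sO-L1 libraries, and the log2 fold change was 0.68 ± 0.20 (adjusted p = 0.0094, 0.242 without the block and 0.156 with DESeq2). The call was lost without ASO-L1 replicate 2 or either sO-L1 library. This rests on 38 to 133 counts a library, and its pseudogene held 69.4% as many counts as the gene, so the value is uncertain. Core subunits of the peripheral arm such as NDUFS1 and NDUFV1 were called in no comparison.

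Complex II consists of the 4 succinate dehydrogenase subunits, and 1 of them, SDHD, was lower in ASO-L1 in both comparisons. SDHD, a membrane anchor subunit, stood at 79.1 and 68.6 CPM in ASO-Ctr, at 86.6 and 74.1 in sO-L1 and at 64.1 and 60.5 in ASO-L1. The ASO-L1 libraries were the lowest of the 6. The log2 fold change was -0.36 ± 0.05 against sO-L1 (adjusted p = 3.7e-07, 0.106 without the block) (a fall by 22.2%), and -0.24 ± 0.05 against ASO-Ctr (adjusted p = 0.00055, 0.27 without the block). The first call held whichever library was left out, and the second was lost without ASO-L1 replicate 1. SDHC, the other membrane anchor, stood at -0.08 ± 0.06 and -0.06 ± 0.06, the iron-sulfur subunit SDHB at 0.05 ± 0.05 and 0.08 ± 0.05, and the flavoprotein SDHA at -0.10 ± 0.05 in each, against sO-L1 and ASO-Ctr, and none of these was called. Pseudogenes of SDHA held 19.0% as many counts as the gene.

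In complex III, 9 nuclear members were tested, and 2 were called in ASO-L1 against sO-L1 (22.2%, background 23.0%) and 3 against ASO-Ctr (33.3%, background 21.5%). CYC1, cytochrome c1, stood at 106.9 and 106.3 CPM in ASO-Ctr, at 108.7 and 102.5 in sO-L1 and at 129.4 and 113.4 in ASO-L1. The ASO-L1 libraries were the highest. It rose by 0.20 ± 0.05 against sO-L1 (adjusted p = 0.0022, 0.259 without the block) and 0.18 ± 0.05 against ASO-Ctr (adjusted p = 0.0073, 0.292 without the block). Each call was lost without ASO-L1 replicate 1 or replicate 1 of the group it was compared with.

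UQCRH, the hinge subunit that sits at cytochrome c1, stood at 222.7 and 232.1 CPM in ASO-Ctr, at 291.7 and 238.8 in sO-L1 and at 304.4 and 269.8 in ASO-L1. Both oligos of L1 sequence were above ASO-Ctr in every library, and replicate 1 was the higher in each of them. Against ASO-Ctr the log2 fold change was 0.32 ± 0.05 in ASO-L1 (adjusted p = 2.2e-05, 0.14 without the block and 0.07 with DESeq2) and 0.21 ± 0.05 in sO-L1 (adjusted p = 0.041, 0.518 with DESeq2). Without ASO-Ctr replicate 1 these were 0.19, still called, and 0.07, and the second call was also lost without sO-L1 replicate 1. UQCR11, the smallest subunit, was lower by -0.15 ± 0.05 against sO-L1 and -0.16 ± 0.05 against ASO-Ctr (adjusted p = 0.03 and 0.022, 0.59 and 0.571 without the block), with overlapping groups. Each UQCR11 call was lost when any library of the groups compared was left out. DESeq2 made neither call (adjusted p = 0.101 and 0.085), and both were also lost without the filter and after thinning. The core proteins UQCRC1 and UQCRC2 and the Rieske protein UQCRFS1 were called in no comparison.

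Complex IV had 13 tested nuclear members, and 0 were called in ASO-L1 against sO-L1 by edgeR with the block (background 23.0%). Without the block 0 had an unadjusted p under 0.05 (background 16.5%). DESeq2 also called 0, and its share over all genes was not counted. Against ASO-Ctr, 4 were higher and 0 lower (30.8%, background 21.5%). COX4I1, a regulatory subunit, stood at 238.0 and 202.7 CPM in ASO-Ctr, at 262.9 and 213.6 in sO-L1 and at 265.7 and 226.5 in ASO-L1. The groups overlapped, as they did for COX7A2, COX8A and COX6A1. Their log2 fold changes were 0.15 to 0.19, with adjusted p-values of 0.01 to 0.036 (0.536 to 0.564 without the block). COX7A2, COX8A and COX6A1, small accessory subunits, lost the call without ASO-Ctr replicate 1 or ASO-L1 replicate 1, and COX4I1 without either ASO-Ctr library or ASO-L1 replicate 2. DESeq2 did not call COX7A2 (adjusted p = 0.062).

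In complex V, 15 nuclear members were tested, and 3 were called in each ASO-L1 comparison (20.0%, background 23.0% against sO-L1 and 21.5% against ASO-Ctr). ATP5B stood at 880.4 and 832.4 CPM in ASO-Ctr, at 882.3 and 832.9 in sO-L1 and at 1009 and 932.6 in ASO-L1. Both ASO-L1 libraries were above the other 4, which were alike at matched replicate numbers. The rise was 0.18 ± 0.05 against sO-L1 (adjusted p = 0.0026, 0.279 without the block) and 0.18 ± 0.05 against ASO-Ctr (adjusted p = 0.0025, 0.271 without the block). Its partner ATP5A1, the alpha subunit, stood at 0.04 and 0.06 and was not called.

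ATP5G2, 1 of the 3 genes for the c subunit of the rotor ring, was at 175.9 and 154.0 CPM in ASO-Ctr, at 186.8 and 157.9 in sO-L1 and at 208.3 and 171.9 in ASO-L1. Each replicate of ASO-L1 was above its numbered partners, while the groups overlapped. The log2 fold change was 0.14 ± 0.05 against sO-L1 (adjusted p = 0.024, 0.599 without the block) and 0.20 ± 0.05 against ASO-Ctr (adjusted p = 0.0014, 0.422 without the block). ATP5G3, which encodes the same mature protein, was at 0.13 ± 0.05 against ASO-Ctr (adjusted p = 0.041), and the third gene, ATP5G1, was not called. ATP5H, the d subunit of the peripheral stalk, was lower than in sO-L1 by -0.17 ± 0.05 (adjusted p = 0.0096, 0.58 without the block). The calls of ATP5B, ATP5G2, ATP5G3 and ATP5H were each lost without ASO-L1 replicate 1 or replicate 1 of the group compared. ATP5G3 also lost its call without ASO-L1 replicate 2, and ATP5G2 its call against sO-L1 without sO-L1 replicate 2.

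**Figure D4:**
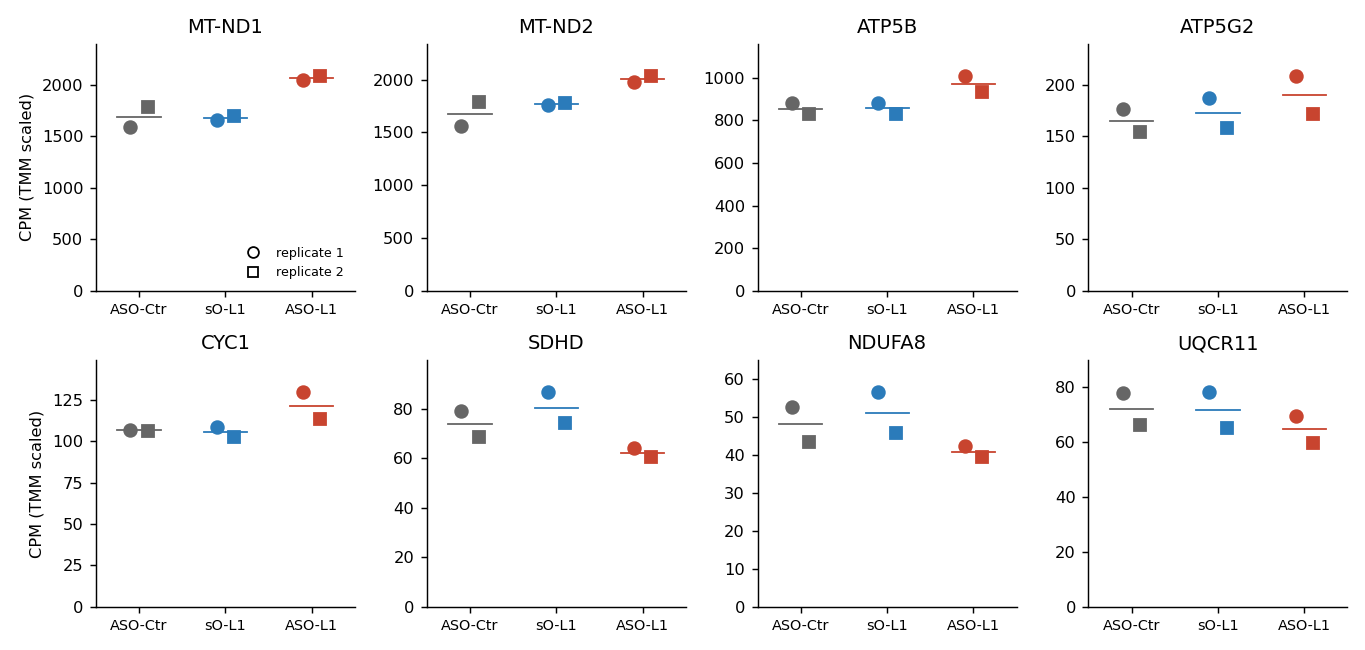
CPM scaled by TMM (y axes, from 0) of the 8 members called in the same direction in both ASO-L1 comparisons, which share the ASO-L1 libraries; circles are replicate 1, squares replicate 2 and bars the group means. MT-ND1 is at 2046 and 2084 CPM in ASO-L1 against 1595 to 1780 CPM elsewhere, and SDHD at 64.1 and 60.5 CPM against 68.6 to 86.6 CPM.

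Among nuclear members the shift between replicate numbers was larger than most fold changes between oligos. The median shift had opposite signs in the 2 genomes. Of the 80 nuclear members tested, 70 were lower in replicate 2 in all 3 groups, where 24.8% of all genes were. Of the 13 mitochondrial members, 9 were higher in replicate 2 in all 3 groups, where 26.3% of all genes were. Of the rest, MT-ND3 was lower in all 3 groups and 3 were mixed. MT-ND1 shifted by 0.16, 0.03 and 0.03 in ASO-Ctr, sO-L1 and ASO-L1, less than its changes of 0.30 and 0.29. The median log2 ratio of replicate 2 to replicate 1 was -0.18, -0.28 and -0.20 for nuclear members in ASO-Ctr, sO-L1 and ASO-L1, and 0.18, 0.04 and 0.04 for mitochondrial members. All 15 nuclear members of complex V, 32 of 36 in complex I and 11 of 13 in complex IV were lower in replicate 2 in all groups. Replicate 2 was also the deeper library in each group. Of 35 calls of named members, 26 held when every library was thinned to the depth of the shallowest, and 0 held without the replicate block.

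**Figure D5:**
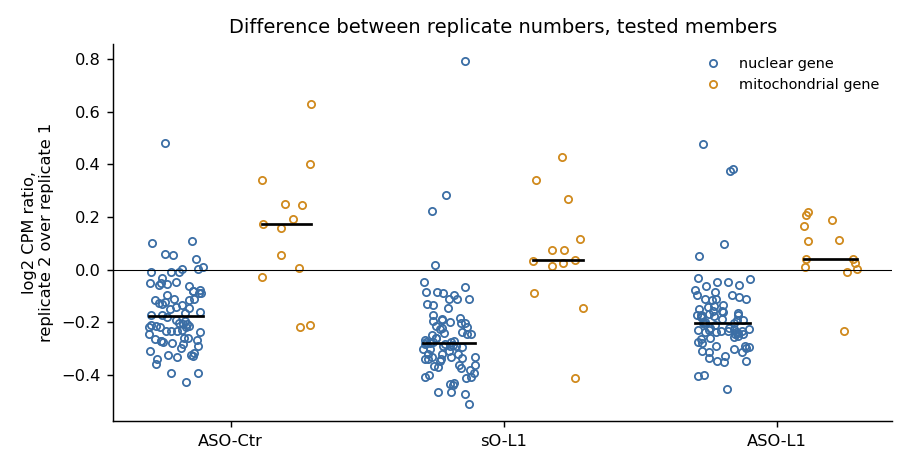
Log2 ratio of CPM in replicate 2 to replicate 1 (y axis) for each tested member, by oligo group (x axis); blue circles are the 80 nuclear members, orange circles the 13 mitochondrial members, and black bars the medians. Nuclear medians lie at -0.18 to -0.28 and mitochondrial medians at 0.18 to 0.04.

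Genes that build and feed the chain showed calls in both directions as well. Of 44 assembly factors of all complexes tested, 5 were higher and 8 lower in ASO-L1 against sO-L1, and 10 higher and 3 lower against ASO-Ctr. That is 29.5% in each, where 23.0% and 21.5% of all genes were called, and the medians were -0.04 and 0.03. For complex I, NDUFAF7, an assembly factor, stood at 58.6 and 60.8 CPM in ASO-Ctr, at 64.7 and 61.8 in sO-L1 and at 87.7 and 82.0 in ASO-L1. Its log2 fold change was 0.42 ± 0.05 against sO-L1 (adjusted p = 8.9e-09, 0.026 without the block), so its call held without the block. NUBPL, which delivers iron-sulfur clusters to complex I, was at 10.6 and 13.2 CPM in sO-L1 and 6.62 and 8.27 CPM in ASO-L1, a log2 fold change of -0.67 ± 0.09 (adjusted p = 1.9e-07, 0.072 without the block). COX18, which inserts part of MT-CO2 into the membrane, was at 34.5 and 32.5 CPM in sO-L1 and 23.6 and 24.5 CPM in ASO-L1, at -0.47 ± 0.06 (adjusted p = 9.2e-08, 0.025 without the block). Its client MT-CO2 was at -0.08 ± 0.05 and was not called.

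Among 32 genes of mitochondrial DNA expression, 3 were higher and 6 lower against sO-L1, and 7 higher and 3 lower against ASO-Ctr, with medians of 0.02 and 0.08. These are 28.1% and 31.2%, beside backgrounds of 23.0% and 21.5%. LRPPRC, which stabilises mitochondrial messages, stood at 484 and 512 CPM in sO-L1 and 617 and 620 CPM in ASO-L1, at 0.31 ± 0.05 (adjusted p = 6.4e-07, 0.06 without the block). The mitochondrial RNA polymerase POLRMT was at 0.23 ± 0.05 (adjusted p = 0.00048, 0.16 without the block). KIAA0391, the nuclease of mitochondrial RNase P that cuts at tRNAs, was at -0.32 ± 0.05 (adjusted p = 6.5e-06, 0.067 without the block), and GRSF1, an RNA granule protein, at -0.23 ± 0.05 (adjusted p = 0.00023, 0.13 without the block).

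In the smaller lists that follow, called shares are set beside backgrounds of 23.0% against sO-L1 and 21.5% against ASO-Ctr. Of 9 regulators of biogenesis, 2 were higher and 1 lower against sO-L1 (33.3%), and 2 higher and 0 lower against ASO-Ctr (22.2%). Those called against sO-L1 were the coactivators PPRC1 (0.22 ± 0.05) and PPARGC1B (0.21 ± 0.07) and the factor NRF1 (-0.19 ± 0.06), with adjusted p-values of 0.00065, 0.023 and 0.024 (0.24, 0.54 and 0.32 without the block). Of 19 genes of the citric acid cycle, 0 were higher and 3 lower against sO-L1 (15.8%), and 2 higher and 3 lower against ASO-Ctr (26.3%). IDH2, the NADP-dependent isocitrate dehydrogenase, stood at 51.9 and 49.2 CPM in sO-L1 and 36.4 and 35.8 CPM in ASO-L1, at -0.48 ± 0.06 (adjusted p = 2.3e-09, 0.021 without the block), and SUCLG2 and FH were at -0.35 and -0.23 (0.069 and 0.21 without the block). Of 7 carriers and channels, 1 was higher and 2 lower in each ASO-L1 comparison (42.9%), among them the uncoupling protein UCP2 at -0.49 ± 0.06 against sO-L1 (adjusted p = 1.4e-08, 0.036 without the block). Of 12 mitochondrial stress genes, 4 were higher and 1 lower against sO-L1 (41.7%), and 4 higher and 0 lower against ASO-Ctr (33.3%). ATF5, a transcription factor of the mitochondrial unfolded protein response, was at 20.3 and 15.8 CPM in sO-L1 and 84.2 and 55.0 CPM in ASO-L1, a log2 fold change of 1.93 ± 0.06 (adjusted p = 2.1e-28, 0.0054 without the block). The matrix protease LONP1 and the chaperone HSPA9 stood at 0.31 and 0.29 (0.06 and 0.089 without the block). All cells had received ISRIB. No member of the chain changed as much as ATF5 did.

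Motif matches in the promoters were counted as a description, without a test. Of 86 nuclear members, 69 had a promoter in the RefSeq table. Over windows of 300 bases (250 before and 50 after the start), 23.2% of these held the NRF1 motif, 27.5% the ETS motif and 27.5% the YY1 motif, against 6.28%, 10.7% and 5.72% of all 27305 promoters. Of members lower in ASO-L1 than in sO-L1, 4 of 7 with a promoter held the NRF1 motif, and 0 of 2 of those higher. Against ASO-Ctr it was 3 of 3 (SDHD, NDUFA8 and UQCR11) and 0 of 8. In NDUFA8 the NRF1 matches reach past the start site. Members not called held the NRF1 motif in 11 of 56 and 12 of 54. The ETS motif was in 3 of 7 lower and 0 of 2 higher members against sO-L1, and in 2 of 3 and 4 of 8 against ASO-Ctr. For YY1 these were 2 of 7 and 1 of 2, and 1 of 3 and 1 of 8. CYC1 and ATP5B, higher in both comparisons, had no promoter in the RefSeq table and are not in these counts. These are descriptions of letters in a window, and binding was not measured.

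The authors' deposited table of ASO-L1 against sO-L1 lists 92 of the members. At an adjusted p under 0.05 the authors' deposited table has 4 nuclear members higher and 7 lower, and 3 mitochondrial members higher and 1 lower. Of all 16753 genes it lists, 1882 are higher and 2000 lower at that threshold. It comes from the same libraries, so it is not independent of the values here. In the authors' deposited table SDHD is at -0.35, NDUFA8 at -0.30, MT-ND1 at 0.31 and MT-ND2 at 0.19. MT-ND4L, not called here, is called in the authors' deposited table at 0.25 (adjusted p = 0.00473).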

How the data were processed

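Poly(A) RNA of 6 libraries was sequenced. The submitters' processing notes name Trim Galore 0.4.0, TopHat2 2.0.13, the build hg19, and featureCounts from Subread 1.5.0. The authors deposited whole-number counts for each gene symbol, and their table's name says that duplicates had been removed. Duplicate removal can cap counts of abundant short genes: MT-CO1 had 74.5 to 306.7 counts per base. The strand setting is not given in the sources used here. The authors' deposited comparison table holds log2 fold changes and p-values, and the authors' deposited log2 table, batch-corrected per the labels, served only to settle its sign (correlation 0.996).

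The 92 spike-in entries were left out. Counts of 19156 genes passing filterByExpr (minimum count 10, total 15) were scaled by TMM and fitted with edgeR 4.0.16 (R 4.3.3) by the quasi-likelihood test, with group and replicate number, all 6 libraries in 1 fit (2 residual degrees of freedom, median prior 45.0). P-values were adjusted by Benjamini-Hochberg over all genes, and adjusted p under 0.05 was called. SE is the absolute log2 change divided by the root of F. With that prior, SE and p of most genes rest largely on spread pooled over genes, after the replicate shift was removed. For MT-ND4 in ASO-L1 against ASO-Ctr the SE was 0.046 with the block and 0.131 without it. The block follows the labels' mention of a batch-corrected table. Nothing in the labels ties a number to a batch, and with 2 numbers the pairing is not established (correlations of the replicate differences between groups 0.258, 0.191 and 0.278).

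Members and gene lists were chosen with earlier results of these data known. Named were all mitochondrial and complex II members, per comparison the 8 called with the smallest p in each direction, the extremes of level per complex, tissue isoforms, and up to 4 called genes per further list. Others, such as COX6A1, COX8A, ATP5G3, MT-RNR2 and genes given as not called, were chosen after their values were seen. Lengths are of GENCODE v29 principal transcripts and promoters are from RefSeq (GRCh38.p14); hg19 coordinates are not used. On simulated data (ASO-L1 against sO-L1, 18772 genes) 88 of 100 changes of 1.5-fold and 99 of 100 of 2-fold were recovered, with 10 unchanged genes called. The simulation gave all groups the same replicate shift and all genes the same spread, and changed only well-counted genes. It therefore cannot show how the block performs where replicate shifts differ between groups. Called members other than NDUFV2 changed by less than 1.5-fold, and recovery of changes of that size was not simulated. The 12 alternatives were DESeq2 1.42.0, its size factors, no filter, no block, scaling without mitochondrial genes, thinning to the shallowest library, and leaving out each of the 6 libraries.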

Additional observations from a re-analysis of the deposited data

How the results depend on the processing

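The replicate block decides every call. Without the block 0 members were higher and 0 lower in each of the 3 comparisons, and all 35 calls of named members were lost, with 0 reversed. Of those 35, DESeq2 kept 25, its size factors 35, no filter 32, scaling without mitochondrial genes 35 and thinning to the shallowest library 26. Only 5 calls held in every alternative except the fit without the block: MT-ND1 in both ASO-L1 comparisons, MT-ATP8 in ASO-L1 against ASO-Ctr, and SDHD and NDUFA8 in ASO-L1 against sO-L1. The cause of the other losses was not tested.

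Leaving out 1 library at a time gave 2 to 7 members higher and 2 to 11 lower in ASO-L1 against sO-L1, 2 to 18 higher and 1 to 5 lower in ASO-L1 against ASO-Ctr, and 0 to 7 higher and 0 to 2 lower in sO-L1 against ASO-Ctr. Where 1 library of a group remained, its spread was taken to be that of the other groups. DESeq2 gave 8 members higher in ASO-L1 against ASO-Ctr. Thinning gave 6 lower in ASO-L1 against sO-L1 and 5 higher in sO-L1 against ASO-Ctr, and no filter gave 6 higher there.

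The nuclear median minus the mitochondrial median of log2 fold change was -0.019 in ASO-L1 against sO-L1, 0.019 in ASO-L1 against ASO-Ctr and 0.029 in sO-L1 against ASO-Ctr. With 1 library left out, the first ranged from -0.064 (without sO-L1 replicate 2) to 0.008 (without sO-L1 replicate 1) and the second from -0.018 (without ASO-L1 replicate 2) to 0.060 (without ASO-Ctr replicate 1), so that each took both signs. In the last it was 0.034 with DESeq2, 0.042 without the replicate block, 0.020 after thinning and 0.027 to 0.052 with 1 library left out. Low counts limit NDUFV2 and the tissue isoforms, and the pseudogene of NDUFV2 held 69.4% as many counts as the gene. The smallest log2 change called in a member was 0.13.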
